A study of Homo sapiens with 17 samples.

Results

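SOX2 carries an HMG-box DNA-binding domain that bends DNA at short AT-rich words, and it is a pioneer factor, able to bind sites that lie in closed chromatin. It is known as a regulator of pluripotent and neural stem cells. FOXA2 is a pioneer factor of another family, with a forkhead domain, known from endoderm and liver. A fusion of full-length SOX2 with a piece of FOXA2 keeps the HMG box, so sites mapped with SOX2 can be set against sites mapped with the fusion. The regions described here are the SOX2 peaks that no peak of the fusion overlapped.

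The study expressed Flag-tagged factors in U2OS, a human osteosarcoma cell line, from a doxycycline-inducible (Tet-on) construct in stable lines, and mapped them by ChIP-seq with a Flag antibody. The labels give 8 factor groups with 2 biological replicates in each and 1 untreated input, 17 samples in all, and every factor group was induced with doxycycline at 500 ng/ml for 4 days according to the treatment label. In the extraction protocol the unit is ng/ul, and the labels do not settle which is right. The groups used were Tet-on SOX2 (full length), Tet-on SOX2FOXA2CTD (full-length SOX2 joined to the CTD of FOXA2, called the fusion), and Tet-on FOXA1, FOXA2 and FOXA3, each at full length and as a dCTD form. The labels spell out neither CTD nor dCTD and do not say whether a line is 1 clone. Peak lists hold no expression values, so the cell line was not checked against markers and the amount of each factor was not analysed here.

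The regions were chosen from the peak list of the first SOX2 replicate. That list holds 13977 peaks, of which 13677 lie on chromosomes 1 to 22 and X outside a stretch of chromosome 1 (121.7 to 125.2 Mb) and a stretch of chromosome 13 (16.0 to 18.1 Mb). A peak counted as not found when no peak of the fusion's first replicate and no peak of the fusion's combined list from both replicates overlapped it by 1 bp or more. By this rule 3305 of the 13677 peaks, 24.2% (Wilson 95% interval 23.5 to 24.9), were not found with the fusion. These are called the regions, and the other 10372 are called the found peaks. The fusion's first list is the longer one, with 42705 peaks, and its combined list has 7895. Read the other way, 75.7% (75.3 to 76.1) of the fusion's first-replicate peaks were overlapped by no SOX2 peak of the first replicate. SOX2 and the fusion each have 1 list of a single replicate, the FOXA groups have combined lists alone, and read numbers are unknown, so no test over samples could be made. The intervals cover counting error over peaks alone, and differences between shares have Newcombe 95% intervals in percentage points.

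A few of the regions lay just before the start of a protein-coding gene, and the sequences of 6 such windows show the DNA under these promoter peaks. They do not stand for the regions at large, of which few lay at a gene start. The 6 with the highest −log10 p among the 28 whose summit fell in the 250 bases before a start are given, chosen after their values were seen, from promoter windows that do not cover every chromosome. Sequences come from RefSeq (GRCh38.p14), run 5′ to 3′ on the gene's strand up to the last base before the start, and capitals mark each match to CATTGT or CTTTGT on either strand, letters found in many SOX sites.
RASAL2: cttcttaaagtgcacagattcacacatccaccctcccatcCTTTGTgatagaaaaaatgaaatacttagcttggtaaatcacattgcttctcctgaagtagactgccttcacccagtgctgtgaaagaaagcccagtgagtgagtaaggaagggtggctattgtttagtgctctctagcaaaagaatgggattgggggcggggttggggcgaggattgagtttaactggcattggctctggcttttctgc
NELFCD: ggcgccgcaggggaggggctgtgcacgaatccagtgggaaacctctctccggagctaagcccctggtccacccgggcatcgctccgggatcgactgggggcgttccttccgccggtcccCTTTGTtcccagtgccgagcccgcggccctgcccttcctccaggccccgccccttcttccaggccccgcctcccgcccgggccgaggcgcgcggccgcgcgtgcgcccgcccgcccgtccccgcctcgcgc
SIRT4: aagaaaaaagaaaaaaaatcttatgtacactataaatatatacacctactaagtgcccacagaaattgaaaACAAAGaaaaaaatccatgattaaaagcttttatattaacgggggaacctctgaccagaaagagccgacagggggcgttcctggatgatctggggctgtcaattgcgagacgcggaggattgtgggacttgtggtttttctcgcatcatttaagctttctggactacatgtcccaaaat
SNAP23: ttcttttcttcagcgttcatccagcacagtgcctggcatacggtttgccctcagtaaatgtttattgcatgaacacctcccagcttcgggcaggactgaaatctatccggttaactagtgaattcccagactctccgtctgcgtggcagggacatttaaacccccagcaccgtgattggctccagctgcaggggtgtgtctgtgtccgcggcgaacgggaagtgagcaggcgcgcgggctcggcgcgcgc
CASP8: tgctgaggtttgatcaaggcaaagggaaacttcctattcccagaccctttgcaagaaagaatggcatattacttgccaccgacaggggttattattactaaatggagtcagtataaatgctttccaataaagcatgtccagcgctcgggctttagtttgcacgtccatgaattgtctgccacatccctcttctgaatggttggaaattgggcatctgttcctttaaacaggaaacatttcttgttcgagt
ABCD2: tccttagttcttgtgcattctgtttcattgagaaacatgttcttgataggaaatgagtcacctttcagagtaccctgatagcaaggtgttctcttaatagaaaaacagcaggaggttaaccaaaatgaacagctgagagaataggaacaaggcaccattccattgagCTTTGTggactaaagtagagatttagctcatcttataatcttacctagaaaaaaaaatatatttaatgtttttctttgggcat
RASAL2, a GTPase-activating protein for Ras, has the window chr1:178341201-178341450 on the plus strand, and the peak's summit lay 101 bases before the start at a −log10 p of 4.82 and a fold enrichment of 4.02. NELFCD, a subunit of the negative elongation factor, has chr20:58981006-58981255 (plus strand), with the summit 137 bases before the start in a window of 76.8% GC. SIRT4, a mitochondrial sirtuin, has chr12:120302071-120302320 (plus strand), with the summit 120 bases before the start. SNAP23, a membrane fusion protein, has chr15:42495384-42495633 (plus strand), and CASP8, the initiator caspase of death receptors, has chr2:201257785-201258034 (plus strand), with summits 194 and 13 bases before the start and no match in either window. ABCD2, a peroxisomal transporter, has chr12:39605508-39605757 on the minus strand, with the summit 140 bases before the start at a −log10 p of 3.95. NELFCD, SIRT4, SNAP23 and CASP8 all had a −log10 p of 4.00 after rounding, so these 4 are nearly equal in strength. Peaks of other factors overlapped 3 of the 6 regions: the SIRT4 peak was overlapped in 5 of the 6 FOXA lists, the ABCD2 peak in 3, and the SNAP23 peak by FOXA1 full length and FOXA2dCTD.

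The letters were counted over all such windows used, none of them on chromosome 8, 22132 windows of 15812 protein-coding genes. The motifs searched were CATTGT and CTTTGT with their reverse complements ACAATG and ACAAAG for SOX, and TGTTTAC and TATTTAC with GTAAACA and GTAAATA for forkhead factors. The SOX word CATTGT and the forkhead word TGTTTAC can share the letters TGT. A SOX word stood in 17.3% (16.8 to 17.8) of all windows, in 20 of the 48 windows touched by a SOX2 peak not found with the fusion (41.7%, 28.8 to 55.7), and in 69 of the 165 windows touched by a found peak (41.8%, 34.6 to 49.4). Both kinds of SOX2 peak thus had nearly the same share, and both intervals lay above the share over all windows. The windows differed in base composition: the median GC was 62.0% over all, 56.2% under the peaks not found and 60.0% under the found peaks. Among windows under 50% GC a SOX word stood in 33.38% of all 4680, in 63.2% of 19 and in 73.8% of 42. A forkhead word stood in 4.26% of all windows, in 2 of the 48 (4.17%) and in 9 of the 165 (5.45%). A match describes the letters alone and is no evidence of a bound site.

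The peaks not found with the fusion were the weaker part of the SOX2 list by the authors' own values. Their fold enrichment over background had a median of 2.91 (10th to 90th percentile 2.30 to 3.64) and a highest value of 5.75, against a median of 3.31 (2.51 to 4.52) and a highest value of 21.5 for the found peaks. Their −log10 p had a median of 2.85 (1.92 to 4.00) and reached 13.8, against 3.62 (2.34 to 5.85) and 128. They were also narrower, at a median width of 252 bp against 329 bp. The ranges overlapped throughout, up to the highest region. Many values were tied: the 3305 regions held 334 distinct −log10 p values, and 244 of them shared a value of 3.16.

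Most of these peaks did not reach significance after the authors' correction over the genome. The −log10 q was 0 for 2666 of them (80.7%) and for 5686 found peaks (54.8%). A q of at most 0.05 was reached by 78 (2.36%) and by 1304 found peaks (12.6%), beside 10.1% over all SOX2 peaks. Sorted by −log10 p into 10 classes of equal number, the share not found with the fusion was 46.4% (43.8 to 49.1) in the weakest class and 5.56% (4.46 to 6.90) in the strongest. The decline was not even, since the second class stood at 32.5% and the third at 37.3%. Strength belongs to the same list the rule used, so these values describe the regions and support nothing further.

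**Figure D1:**
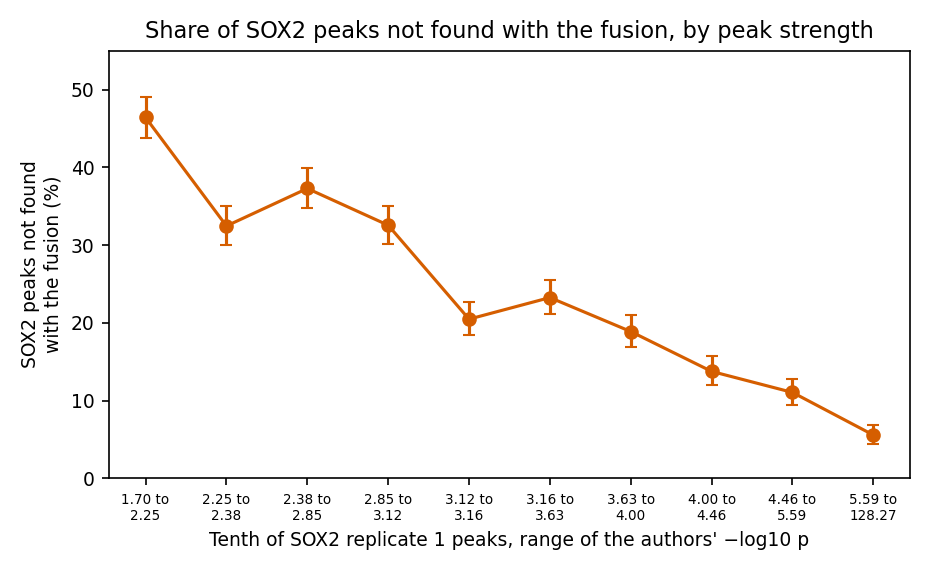
Share of SOX2 peaks not found with the fusion (y axis, percent, with Wilson 95% intervals) in 10 classes of equal number of the SOX2 list ordered by the authors' −log10 p (x axis). The weakest class stands at 46.4% and the strongest at 5.56%.

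How close a region came to being called found depended on distance and on the length of the overlap. A fusion peak lay within 100 bp of 75 of the 3305 regions (2.27%), within 1 kb (1000 bp) of 428 (12.95%, 11.8 to 14.1) and within 10 kb of 1558 (47.1%). The median gap to the nearest fusion peak was 11143 bp and the largest 682349 bp. On the other side of the threshold, 11 found peaks (0.106%) were found through an overlap of at most 10 bp and 103 (0.993%) through one of at most 50 bp. Most regions lay over 1 kb from any fusion peak.

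The second SOX2 replicate entered only through the combined SOX2 list, which the rule did not use. That list has 1375 peaks, 1365 of them on chromosomes 1 to 22 and X, and 1129 of these lie in the left-out stretches of chromosomes 1 and 13. Of the 236 others, 178 were overlapped by a first-replicate peak, so few SOX2 peaks of any kind could be in it. Of the regions, 25 of 3305 (0.756%) overlapped a peak of the combined list, against 155 of the 10372 found peaks (1.49%) and 1.32% of all SOX2 peaks. The difference was −0.74 points (−1.09 to −0.32). Averaged within 4 bands of equal number by −log10 p, each band counting equally, the difference was 0.028 points. In single bands it was −0.33, −0.17, 0.80 and −0.19 from weak to strong. Where they were in the combined list, the weaker of both replicates' −log10 p had a median of 3.94 (2.96 to 7.81) in the 25 regions and 4.15 (2.34 to 53.5) in the 155 found peaks, and these ranges overlapped.

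Of those 25 regions, 14 lay in long stretches without any annotated gene and 11 elsewhere. Inside the stretches, 2.70% of the regions and 10.96% of found peaks were in the combined list (difference −8.25 points, −11.3 to −5.35). Elsewhere it was 0.395% against 0.939% (difference −0.54, −0.82 to −0.19). The strongest 5 of the 25 all lay inside such stretches. They were led by chr10:40128257-40128555, with −log10 p values of 7.81 and 8.54 in the combined list's replicate columns, and chr11:53396171-53396389, with 7.76 and 7.62. The others of the 5 were chr12:36127768-36127975, chr20:26998156-26998380 and chr4:50726744-50726941. The columns carry no replicate number, so neither value can be tied to a replicate. Among the 11 elsewhere, chr3:196103394-196103622 lay 21454 bp from TFRC, the transferrin receptor, at 4.70 and 4.33. The region chr8:129886894-129887194 inside CYRIB, a Rac-binding regulator of actin, had 4.66 and 4.17, and chr10:99839100-99839297 inside ABCC2, an exporter of organic anions, had 4.39 and 4.08. These 3 had no peak in any FOXA list.

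Others of the 11 were named after their values were seen. The region chr18:12991488-12991767 in CEP192, a centrosome protein, lay 253 bp from an end of the gene, had 2.96 and 5.95, and was overlapped in all 6 FOXA lists. The region chr17:43284428-43284729, nearest to CCDC200, had 6.45 and 3.91 and was overlapped by full-length FOXA1 and FOXA2. The region inside SEZ6L (chr22:26383126-26383382) had no FOXA peak and lay 344 bp from an end of that gene. A further 3 had DLG1 (chr3:197306580-197306980), FRG2 (chr4:190089904-190090141) and WIPI2 (chr7:5244361-5244871) as nearest genes, and of these the DLG1 region was overlapped by FOXA1dCTD and FOXA2dCTD.

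Regions lay in long gene-free stretches more often than found peaks did. For each chromosome the longest stretch with no annotated gene was taken, 164.4 Mb in all, and in most chromosomes that stretch runs across or beside the centromere. The regions had 518 of 3305 summits there (15.7%) against 575 of 10372 found peaks (5.54%), a difference of 10.1 points (8.85 to 11.5), beside 7.99% over all SOX2 peaks. These 518 lay in 18 stretches. Outside the stretches, 297 of the 1424 SOX2 peaks over 500 kb from a protein-coding gene were not found (20.9%). That stood beside 22.1% of all SOX2 peaks outside the stretches. Over peaks of every strength, distance from genes thus did not go with a higher share there. At a q of at most 0.05 it did. Outside the stretches 28 of 1184 such peaks were not found (2.36%), against 16 of 1019 (1.57%) within 500 kb of a protein-coding gene. The share was thus higher for those farther off, a difference that was not tested. On chromosome 18 (15330264 to 20946905), 79 of 111 SOX2 peaks in the stretch were not found with the fusion (71.2%). On chromosome 20 (26251589 to 28580632) the count was 39 of 67 (58.2%), on chromosome 12 (34250266 to 37575342) 60 of 110 (54.5%), and on chromosome 19 (24179012 to 27681071) 44 of 87 (50.6%). Chromosome 4 (49589729 to 51833883) had 60 of 141 (42.6%). Reads from repeated DNA can map to several places, and how the authors treated such reads is not given in the sources used here, so the part of mapping in these counts was not tested.

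The strongest regions by −log10 p were nearly all in these stretches. Of the 10 highest, 9 lay inside one, and the other, chr21:11641192-11641427 at a −log10 p of 10.0, lay 1035583 bp from the nearest protein-coding gene, TPTE. The highest pair were chr19:25454764-25454987 and chr5:49367983-49368204, both at 13.8, with fold enrichments of 4.81 and 3.66. All 10 were overlapped by a peak of full-length FOXA2, and 9 of them by FOXA2dCTD, the exception being chr19:27176354-27176558. Inside the stretches, full-length FOXA2 overlapped 44.0% of all regions and 51.1% of found peaks, and FOXA2dCTD 27.8% and 44.0%. Those shares cover peaks of every strength. Shares for peaks as strong as these 10 were not taken inside the stretches, so 10 of 10 cannot be set against them. None of these 10 overlapped a peak of the combined SOX2 list. Outside the stretches, the strongest region near a gene was chr15:80032768-80033020, 26121 bp from ZFAND6, at 7.87, and it was overlapped in no FOXA list. The region chr12:21749131-21749398, 15708 bp from the potassium channel gene KCNJ8, had 6.09. Others of comparable strength lay on chromosomes 3, 14 and 21 over 500 kb from any protein-coding gene, so the stretches used here do not take in all gene-poor DNA. These outside examples were chosen after their values were seen.

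Among SOX2 peaks with a q of at most 0.05, the share not found with the fusion was 5.64% (4.55 to 6.99), 78 of 1382. Inside the gene-free stretches it was 50 of 198 (25.3%, 19.7 to 31.7), and outside them 28 of 1184 (2.36%, 1.64 to 3.40). Outside the stretches and within 500 kb of a protein-coding gene, a distance set after seeing the data, it was 16 of 1019 (1.57%, 0.97 to 2.54).

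**Figure D2:**
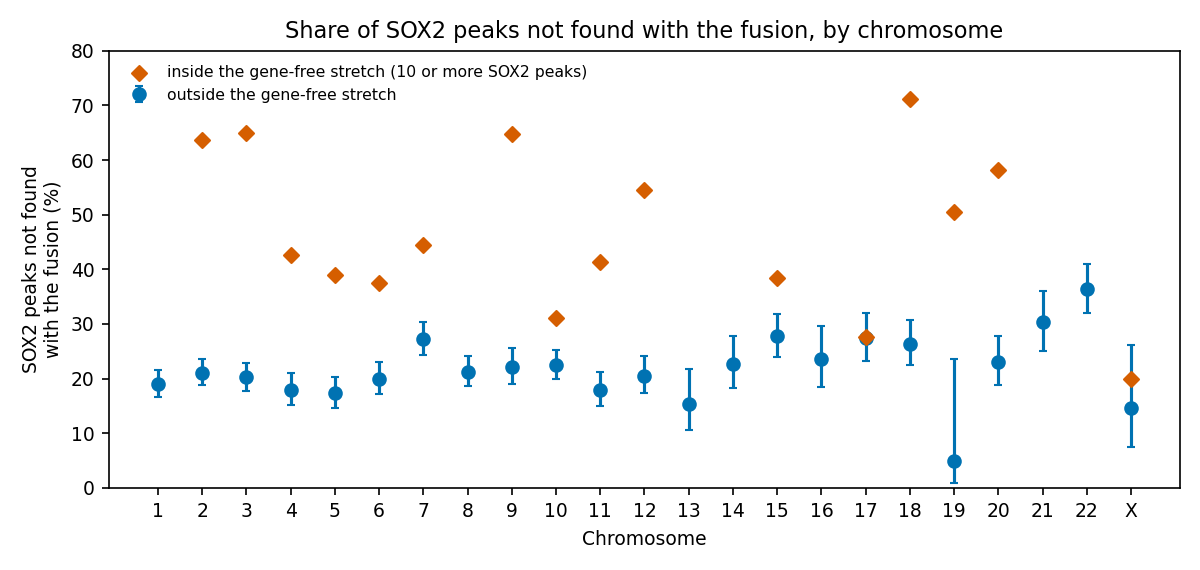
Share of SOX2 peaks not found with the fusion per chromosome (y axis, percent), for peaks outside its longest gene-free stretch (circles, with Wilson 95% intervals) and inside it (diamonds, where the stretch holds 10 or more SOX2 peaks). On chromosome 18 the share is 71.2% inside and 26.3% outside, and chromosome 22 has the highest share outside, at 36.3%. The stretch of chromosomes 14, 21 and 22 held no SOX2 peak, so their circles cover all their peaks.

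Outside the stretches the share not found still differed between chromosomes. It was 36.3% (31.9 to 41.0) on chromosome 22, 30.3% (25.1 to 36.1) on chromosome 21, 27.7% on chromosome 15, 27.3% on chromosome 17 and 27.2% on chromosome 7. It was lowest on chromosomes X (8 of 55, 14.5%), 13 (25 of 162, 15.4%) and 19 (1 of 20). The intervals of chromosomes 21 and 22 overlapped each other, and that of chromosome 22 lay above those of every other chromosome except 17 and 21. These shares are not fully alike. On chromosomes 14, 21 and 22 the longest gene-free stretch lies at the start of the chromosome and held no SOX2 peak. Their shares thus cover all their peaks, with gene-poor DNA such as that at chr21:11641192-11641427 still counted as outside. On chromosomes 1 and 13 the left-out stretches lie within it, and it held no other SOX2 peak.

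Single windows of 5 Mb held many of them. Over 557 windows with a SOX2 peak outside the stretches, the median window had 18 SOX2 peaks, 3 of them not found, and 71 peaks of the fusion's first replicate. The window at 25 to 30 Mb of chromosome 22 had 160 SOX2 peaks, of which 79 (49.4%) were not found, although the fusion had 227 peaks there. The window at 0 to 5 Mb of chromosome 18 had 146, with 55 not found (37.7%) and 272 fusion peaks. Next came chromosome 7 at 0 to 5 Mb with 40 of 81 (49.4%), chromosome 7 at 5 to 10 Mb with 37 of 81 (45.7%), and chromosome 3 at 90 to 95 Mb with 32 of 117 (27.4%), equal in number to chromosome 21 at 25 to 30 Mb with 32 of 109. These first 5 windows, picked for their counts, hold 243 of the regions (7.35%) and 585 of the SOX2 peaks (4.28%). Peaks of other factors were also dense in the chromosome 22 window, with 0.371% to 0.806% of each FOXA list against a median window's 0.132% to 0.172%. In the chromosome 3 window they were sparse, at 0.044% to 0.134%. U2OS cells carry many chromosome gains and losses, copy number was not measured in these files, and its part in the dense windows was not tested.

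**Figure D3:**
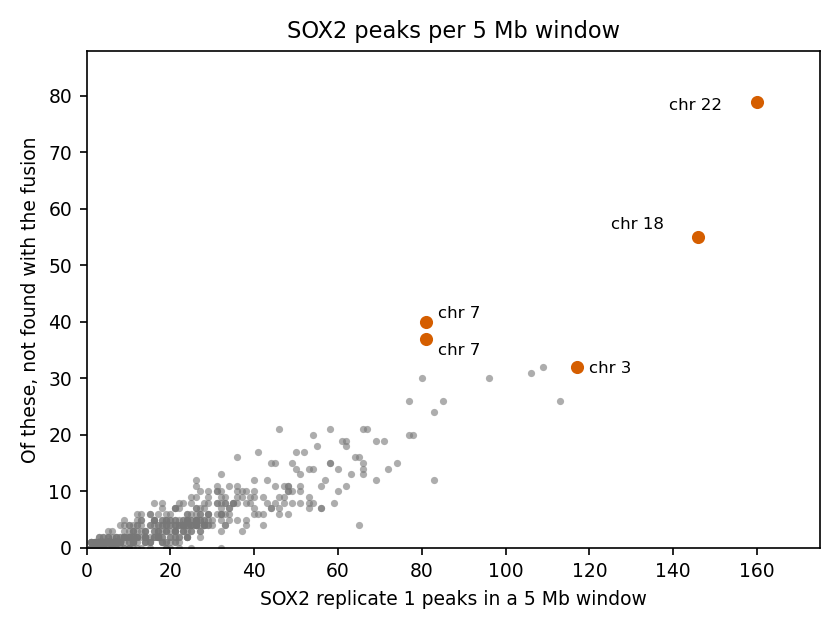
Number of SOX2 peaks per 5 Mb window outside the gene-free stretches (x axis) against the number not found with the fusion (y axis), 1 point per window, with the 5 windows named in the text in orange. The window of chromosome 22 at 25 to 30 Mb stands apart, with 79 of 160.

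The genes that held most of the regions lie partly in these windows. In all, 916 protein-coding genes held the summit of a region, 731 of them only 1 and 19 of them 5 or more, while 2736 held any SOX2 summit. TTC28, a large tetratricopeptide repeat protein (chr22:27978014-28679840), held 21 regions of 45 SOX2 peaks, and the fusion had 46 peaks in the gene. DLGAP1, a scaffold protein of the postsynaptic density (chr18:3496032-4455307), held 19 of 46 beside 66 fusion peaks. SDK1, a cell adhesion protein of synapses (chr7:3301252-4269000), held 11 of 28 beside 48. LINGO2, a leucine-rich repeat membrane protein (chr9:27937617-29213601), held 10 of 33 beside 50, and PRKG1, a cGMP-dependent protein kinase (chr10:50990888-52298350), held 8 of 30 beside 54. In each of these 5 genes the fusion had at least as many peaks as SOX2 (46 against 45 in TTC28), while the fusion's list is the longer one genome-wide. The highest −log10 p of a region was 3.62 in TTC28, 4.75 in DLGAP1 and 3.50 in SDK1. Exons and introns were not told apart.

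The regions lay near gene ends slightly more often than found peaks. Of the regions, 3.99% had a summit no more than 1 kb from the start or end of a protein-coding gene, against 2.65% of found peaks, a difference of 1.34 points (0.65 to 2.12), beside 2.98% over all SOX2 peaks. Outside the gene-free stretches it was 4.74% against 2.81%, a difference of 1.93 (1.12 to 2.84). Over the chromosomes with annotated starts (chromosome 8 was not used here), 98 of 3121 regions (3.14%) and 205 of 9690 found peaks (2.12%) had a summit within 1 kb of a start, a difference of 1.02 (0.39 to 1.75). The excess was uneven over strength: in 4 bands from weak to strong, the difference at gene ends was −0.09, 2.34, 0.90 and 0.13 points.

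The strongest regions at gene ends reached a −log10 p of 4.90 at most. That one, chr4:70704131-70704483, lay inside RUFY3, a regulator of neuronal transport, 547 bp from an end of the gene (its start or its end). It was followed by chr8:69466940-69467223 in SULF1, a sulfatase that trims heparan sulfate (4.84, 300 bp from an end), and chr2:148515881-148516194 in MBD5, a protein with a methyl-CpG-binding domain (4.62, 903 bp). The next were KCNC4, a potassium channel subunit (chr1:110284542-110284757, 4.57), FDXR, the mitochondrial ferredoxin reductase (chr17:74873291-74873575, 4.46), and AKAP9, a scaffold of the centrosome and Golgi (chr7:92110044-92110292, 4.46). PPP2R1B, a scaffold subunit of protein phosphatase PP2A (chr11:111766841-111767200), ZNRF1, a ubiquitin ligase (chr16:75110517-75110714), NELFCD, and FBXO16, an F-box protein (chr8:28490299-28490563), shared a value of 4.00. Of these 10, the AKAP9 region was overlapped in 4 FOXA lists and 4 regions (SULF1, KCNC4, ZNRF1 and NELFCD) in none.

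Inside protein-coding genes lay 37.6% of the regions and 40.7% of found peaks, a difference of −3.12 points (−5.01 to −1.20), beside 40.0% over all SOX2 peaks. This turned outside the gene-free stretches, where it was 44.6% against 43.1%, a difference of 1.48 (−0.60 to 3.58) whose interval includes 0. Another SOX2 peak within 10 kb was present for 28.9% of the regions and 24.0% of found peaks, a difference of 4.89 (3.16 to 6.65), beside 25.2% over all. Outside the stretches it was 26.05% against 21.9%, and inside them 44.0% against 59.7%. When regions with a fusion peak within 1 kb were moved to the found peaks, the neighbour difference became −0.39 (−2.14 to 1.42), while it was 5.36 (3.88 to 6.83) with 50% reciprocal overlap and 5.72 (4.00 to 7.47) against the fusion's first replicate alone.

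The FOXA lists come from other lines and did not enter the rule. Of the regions, 2308 (69.8%) were overlapped by no peak of the 6 FOXA lists and 38 (1.15%) by a peak of every one. A peak of at least 1 FOXA list overlapped 30.2% of the regions and 26.2% of found peaks, a difference of 3.92 points (2.16 to 5.72), beside 27.2% over all SOX2 peaks. Full-length FOXA2 overlapped 18.8% against 15.0%, a difference of 3.79 (2.32 to 5.31), beside 15.9%. When found meant a 50% reciprocal overlap with a fusion peak, these differences were 0.86 (−0.64 to 2.36) for any FOXA list and 0.50 (−0.74 to 1.74) for full-length FOXA2, with intervals that include 0. By the 1 bp rule, FOXA2dCTD overlapped 18.9% against 17.7% (difference 1.23, −0.27 to 2.78, beside 17.9%). Full-length FOXA1 stood at 8.32% against 8.43% (beside 8.40%), and FOXA1dCTD at 11.6% against 13.3%, lower in the regions by a difference of −1.74 (−2.98 to −0.43, beside 12.9%). Outside the gene-free stretches the FOXA1dCTD shares were 13.5% and 13.6%, a difference of −0.13 (−1.53 to 1.35) whose interval includes 0. FOXA3 at full length (3.27% against 3.78%, beside 3.66%) and FOXA3dCTD (3.54% against 3.99%, beside 3.88%) had differences whose intervals include 0. The lists differ in length, from 6130 peaks for full-length FOXA3 to 53415 for FOXA2dCTD, so shares are compared within a list and not between lists.

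The FOXA2 excess did not hold within the gene-free stretches or, by its interval, outside them. Outside, full-length FOXA2 overlapped 14.1% of the regions and 12.9% of found peaks, a difference of 1.22 (−0.20 to 2.71). Inside, it overlapped 44.0% and 51.1%, a difference of −7.11 (−13.0 to −1.19). Both kinds of peak were overlapped by FOXA2 far more often inside the stretches, and the regions had a larger part of their number there, as given above. FOXA2dCTD inside stood at 27.8% against 44.0%, FOXA1dCTD at 1.16% against 7.83%, and full-length FOXA1 at 0 of the 518 regions, which allows a share of up to 0.579% when 3 counts are taken as the limit, against 1.39%. Over any FOXA list the difference was 2.18 (0.36 to 4.06) outside and −7.31 (−13.2 to −1.39) inside. The regions are the weaker peaks, and bands of strength were not taken inside the stretches. The differences inside are thus not between peaks of like strength, and their sign at a given strength is not shown.

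Outside the stretches, the FOXA2 difference was also taken within 4 bands of strength. In the strongest band (−log10 p from 4.00, ties divided by rank), full-length FOXA2 overlapped 43 of 182 regions (23.6%, 18.04 to 30.3) and 388 of 2817 found peaks (13.8%, 12.6 to 15.1), a difference of 9.85 (4.11 to 16.6). Of those 43, 13 lay over 500 kb from a protein-coding gene, and without such peaks the shares were 30 of 148 (20.3%) and 331 of 2465 (13.4%), a difference of 6.84 (0.99 to 14.1). Other FOXA lists also had a difference above 0 in this strongest band outside the stretches: 4.90 (0.70 to 10.6) for full-length FOXA1, at 12.6% against 7.74%, and 6.09 (0.45 to 12.8) for FOXA2dCTD, at 22.5% against 16.4%. For FOXA1dCTD and both FOXA3 lists the interval includes 0. Within 500 kb of a protein-coding gene, full-length FOXA1 gave 6.67 (1.70 to 13.4), close to full-length FOXA2, and for FOXA2dCTD the interval included 0 (4.79, −1.28 to 12.2). In the other 3 bands the FOXA2 difference outside the stretches was 2.27, −1.24 and 1.96 from weak to strong, with intervals that include 0. The bands and distances were looked at after the pooled values were seen, and 4 bands were compared.

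**Figure D4:**
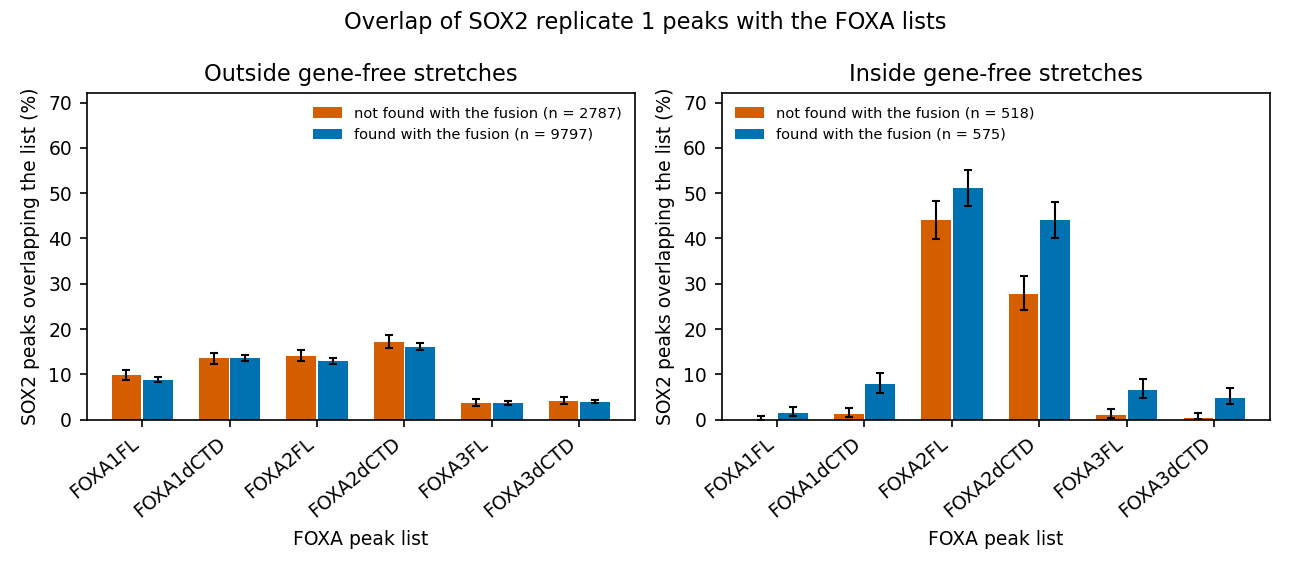
Share of SOX2 peaks overlapped by each FOXA list (y axis, percent, with Wilson 95% intervals), for peaks not found and found with the fusion, outside and inside the longest gene-free stretches. Full-length FOXA2 stands at 14.1% against 12.9% outside and at 44.0% against 51.1% inside.

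Gene lists had few SOX2 peaks of any kind, and few regions, near genes that SOX2 or bone cells are known for. Counted within 10 kb of a gene, the list of 28 pluripotency and neural genes had 4 SOX2 peaks. Of these 1, at DPPA4, a pluripotency marker, was not found with the fusion (25.0%, beside 24.2% over all). The 18 SOX family genes that matched had 21 SOX2 peaks and 1 region, at SOX5, which had 15 of the 21 peaks (4.76% not found, beside 24.2% over all). The 24 osteoblast and mesenchymal genes had 5 SOX2 peaks, all found with the fusion, too few to set against the 24.2% over all. Of the 24 AP-1 and TEAD pathway genes, 5 had 6 SOX2 peaks between them, and 3 of the 6 were not found (50.0%, beside 24.2% over all). They were both peaks at MAFK, a small Maf protein, and the 1 at FOSL2, a Fos-family subunit of AP-1. Their −log10 p reached only 2.34 at MAFK and 2.24 at FOSL2. Both values lie in the weakest of the 4 bands of strength, where 37.5% of all SOX2 peaks were not found. The 30 long neuronal and adhesion genes had 159 SOX2 peaks near 23 of them and 20 regions near 11 (12.6%, beside 24.2% over all). DLG2, a synaptic scaffold, had 5 regions of 28 peaks, LSAMP 3 of 9, PCDH15 2 of 24, and CNTN5 2 of 9. Several lists rest on 6 peaks or fewer, and no list was tested.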

How the data were processed

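ChIP-seq of Flag-tagged factors in U2OS cells gave 14 deposited peak lists, of which 10 were used, since 4 were byte-for-byte copies. The submitters' processing notes name hg38, FastQC 0.10.1, Trim Galore, Bowtie2 2.4.4, SAMtools 0.1.18, MACS2 and deepTools 2.4.1, with no role or order. The control, the cutoffs and the treatment of reads that map to several places are not given in the sources used here. For each peak, the authors' fold enrichment (a ratio), −log10 p and −log10 q are deposited for the first replicates of SOX2 and the fusion. The combined lists have the 20-column IDR layout, and their deposited −log10 p columns carry no replicate number. Read numbers are unknown.

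Overlaps of 1 bp, shares with Wilson intervals and differences with Newcombe intervals were computed in Python 3.11.15 (numpy 2.4.6, pandas 2.3.3) and checked on simulated peaks. Positions are 1-based. Gene ends (19974 protein-coding, 59098 annotated genes) and promoter windows come from RefSeq GRCh38.p14. Groups were taken from the sample titles. Regions and gene lists were chosen with earlier results of these data known. Named by rule were the 10 strongest regions, the 10 strongest in the combined SOX2 list, the 10 strongest at gene ends, the 5 genes with most regions, and list genes with a region within 10 kb. The planned SOX motif share at summits needs a genome and was not computed. Some regions that these rules name are not reported here.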

Additional observations from a re-analysis of the deposited data

Results flagged for a closer look

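SOX2 peaks outside the chromosomes and stretches compared were also set against the fusion's lists. On other contigs and chromosome Y, 62 of 189 SOX2 peaks (32.8%, 26.5 to 39.8) were overlapped by no fusion peak, above the 24.2% of the peaks compared. In the left-out stretches of chromosomes 1 and 13, 12 of 111 (10.8%, 6.29 to 17.95) were overlapped by none, below that share. Both counts are listed because these peaks enter no comparison, and neither difference was tested.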

How the results depend on the processing

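Of 59 alternative values of 7 results, 36 stayed within the interval of the value reported, 20 moved beyond it and 3 changed sign. The share not found, 24.2% as reported, was 16.2% for SOX2 peaks with a −log10 p of at least 3, 44.2% with 50% reciprocal overlap, 21.0% with no fusion peak within 1 kb, 25.1% against the fusion's first replicate alone, and 22.1% without the gene-free stretches. Chosen after seeing the data, a fusion list cut to the number of SOX2 peaks gave 51.8%, and a SOX2 q of at most 0.05 gave 5.64%. The following are differences in points, regions minus found peaks. At a −log10 p of at least 3 they were −0.27 for the combined SOX2 list, 8.22 for any FOXA list, 8.44 for full-length FOXA2, −6.58 inside genes and 1.92 for a neighbour. With 50% reciprocal overlap any FOXA list gave 0.86 and FOXA2 0.50. Averaged within 4 bands of strength, each band counting equally, the combined list turned to 0.028, any FOXA list gave 8.46, FOXA2 8.97 and inside genes −6.49. These averages rest largely on the strongest band, which holds 333 of the 3305 regions. There any FOXA list gave 25.6, FOXA2 28.1 and inside genes −19.0. In that band 45.3% of the regions and 8.72% of found peaks lay in the gene-free stretches. Outside the stretches the same band gave 9.98, 9.85 and −6.46, the last with an interval that includes 0 (−13.3 to 0.96). In the weaker bands, with the stretches included, FOXA2 gave 2.55, 0.46 and 4.79 from weak to strong. Other weights by number of regions were not run. Without the gene-free stretches inside genes turned to 1.48, and FOXA2 gave 1.22. With no fusion peak within 1 kb the neighbour difference turned to −0.39, and with neighbours within 50 kb it was 7.22. With the stretches of chromosomes 1 and 13 kept in, the combined list gave −1.36. The difference at gene ends kept its sign under every alternative run. The causes of these moves were not tested.

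No paired analysis was possible because SOX2 and the fusion each have a list of 1 replicate and the FOXA groups have combined lists alone, and leaving out a replicate was not possible for the same reason. The planned SOX motif share and its alternatives were not run. With depth unknown, a SOX2 peak with no fusion peak is not shown to be unbound by the fusion.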
